A study of Mus musculus with 74 samples.

Results

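Late Th1 and Th2 cells were compared on 16 of the 74 arrays of the series. They were chosen by their labels as all Th1 and all Th2 arrays at 48, 73, 96, and 120 h after activation, which gives 8 arrays per cell type, each matched to 1 array of the other cell type by time and experiment number. All cells were cultures of naive CD4+ T cells from spleen and lymph node of Balb/c mice of 5 to 8 weeks, activated with anti-CD3 and anti-CD28. For Th1 polarization, IL-12 was added and IL-4 was blocked with an antibody. For Th2 polarization, IL-4 was added, and IL-12 and IFN-γ were blocked with antibodies. For reference, levels are given for Th0 cells (antibodies against IFN-γ, IL-4, and IL-12), for Th1/2 hybrid cells (IL-12 and IL-4), and for naive cells at 0 h. The cultures started from magnetically sorted cells pooled from several organs, so each array is an average over a mixed population. The 8 arrays of a cell type come from 2 experiments, and nothing in the labels says that the time points of an experiment were separate cultures. The p-values given here therefore cover less than the variation between cultures. Added cytokines and blocking antibodies differ together between the 2 conditions, and their effects cannot be told apart here.

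Th1 cells are helper T cells that fight intracellular pathogens. IL-12 acts through STAT4, the transcription factor T-bet (*Tbx21*) opens the Th1 program, and the signature cytokine IFN-γ acts back on the cells and induces GTPase and antigen presentation genes. Th2 cells respond to helminths and in allergy, where IL-4 acts through STAT6 and the transcription factor GATA-3 drives the cytokines of type 2 immunity.

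Levels are log2 probe intensities. The late difference of a gene is the mean log2 level of the 8 Th1 arrays minus that of the 8 Th2 arrays, so positive values are higher in Th1 cells. In bulk RNA, fewer cells expressing a gene and less RNA per cell cannot be told apart. A gene was called when its limma p, adjusted by Benjamini-Hochberg over all 13817 genes tested, was under 0.05, and called 2-fold when the late difference was also at least 1 on the log2 scale. Groups are described as separated when all 8 arrays of a cell type lay above all 8 of the other. The labelled cell type was checked first. Of 8 T-cell markers, 7 were on the array, and their summed linear intensity lay between 63557 and 110358 in Th1 arrays and between 56123 and 100537 in Th2 arrays. The CD3 chains *Cd3d*, *Cd3e*, and *Cd3g* had means from 13.74 to 14.33 and were 0.18, 0.21, and 0.21 higher in Th1 cells, and *Cd4* was at 9.20 and 9.30 in Th1 and Th2 cells. *Cd8b1*, a CD8 chain, was at 12.14 in Th1 and 12.06 in Th2 cells (late difference 0.09, adjusted p = 0.739), whereas *Cd8a* did not pass the filter on dim probes. Whether the *Cd8b1* probe reads CD8 cells in these cultures was not tested. Correlation with the array of the other experiment was between 0.987 and 0.991 for the 16 arrays.

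Of 13817 genes, 1445 (10.5% of all genes tested) were called higher and 1378 (9.97%) lower in Th1 cells. With the 2-fold criterion, 153 genes (1.11%) were higher and 141 (1.02%) were lower. The median absolute late difference of all genes was 0.085, and the median SE was 0.074. All 8 matched pairs had the same sign in 134 of the 153 genes higher in Th1 cells and in 121 of the 141 lower ones. The arrays were separated for 64 and 56 of these genes, and among all genes for 141 (1.02%) with Th1 above and 120 (0.868%) with Th2 above. The 2-fold calls rest on the same arrays, so these counts describe the called genes and are no separate test. The median late difference of all genes was 0.00, and this is the value against which the medians of gene lists are read. Counts of called members in every list are likewise read against the 10.5% of all genes called higher and the 9.97% called lower. Of the genes higher in Th1 cells, 21 had a Th2 mean below 6.77, the median of all values, and 13 of the genes lower in Th1 cells had a Th1 mean below it. No detection call came with the values, so at such levels it is not known how much of the dimmer side is background.

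**Figure D1:**
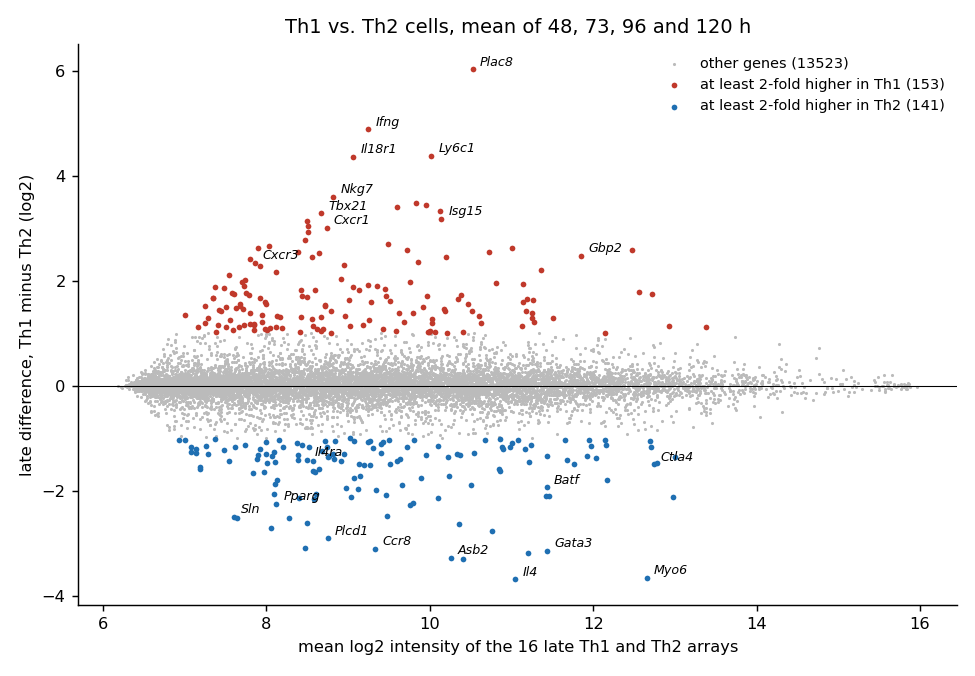
Late difference of each gene (y axis, Th1 minus Th2, log2) against its mean log2 intensity over the 16 arrays (x axis). Red points are the 153 genes at least 2-fold higher in Th1 cells, blue points the 141 genes at least 2-fold higher in Th2 cells, and grey points all others; *Plac8* at 6.03 and *Il4* at -3.69 are the extremes among labelled genes.

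The defining genes of both programs stood far apart. *Tbx21* (chr11:97098007-97115331, GRCm38.p6) lay between 9.38 and 11.07 in Th1 arrays (median 10.47) and between 6.51 and 8.40 in Th2 arrays (median 6.91). No Th2 array reached the lowest Th1 array. The late difference was 3.29 (SE 0.19, adjusted p = 5.35e-18). *Ifng* ranged from 8.75 to 14.55 in Th1 arrays (median 11.55) and from 6.04 to 8.87 in Th2 arrays (median 6.58). These ranges overlapped, since 1 Th1 array at 120 h lay below the highest Th2 array, which was at 48 h, but all 8 matched pairs were positive. Its late difference was 4.89 (SE 0.37, adjusted p = 2.46e-14).

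*Gata3* (chr2:9857078-9887953) lay between 9.42 and 10.27 in Th1 arrays (median 9.78) and between 12.67 and 13.36 in Th2 arrays (median 13.01). The gap between the ranges was wider than either range. The late difference was -3.15 (SE 0.10, adjusted p = 5.11e-26). *Il4* ranged from 7.13 to 10.52 in Th1 arrays (median 9.62) and from 11.26 to 13.85 in Th2 arrays (median 13.32), again without overlap, and the late difference was -3.69 (SE 0.38, adjusted p = 1.64e-10). The mean *Il4* level of Th1 cells went from 7.47 at 48 h to 10.15 at 120 h, whereas Th2 cells went from 11.28 to 13.45.

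Of 10 Th1 transcription factor genes tested, 7 were higher, 1 was lower, and 2 were not called, with a median late difference of 0.71. *Eomes*, a T-box factor related to T-bet, differed by 1.98 (SE 0.25, adjusted p = 2.98e-08) without overlap of the arrays. *Irf8*, an interferon regulatory factor, and *Stat4*, the signal transducer of IL-12, differed by 1.27 and 0.86. The member that went the other way was *Id2*, an inhibitor of E proteins, at -0.50 (named after its value was seen). Of 7 Th1 cytokine genes, 2 were called: *Ifng* and *Tnf*, the gene of TNF, which differed by 0.73 (adjusted p = 9.52e-04) but lost the call without Th1 experiment 1 (0.35, adjusted p = 0.242) and without Th2 experiment 2 (0.60, adjusted p = 0.053). The other 5 cytokine genes of this list had late differences from 0.03 to 0.51 and were not called.

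Receptor chains showed some of the widest gaps. *Il18r1*, which encodes the IL-18 receptor chain that lets Th1 cells respond to IL-18, lay between 8.90 and 12.69 in Th1 arrays (median 11.77) and between 6.62 and 7.31 in Th2 arrays (median 6.84). The groups were separated, with a late difference of 4.36 (SE 0.15, adjusted p = 9.24e-26). *Il18r1* has 3 expressed probes, and the 2 dimmer ones differed by 0.54 and 1.46 in the same direction. *Il12rb2*, the signalling chain of the IL-12 receptor, ranged from 9.44 to 10.93 in Th1 arrays and from 6.53 to 7.35 in Th2 arrays, with a late difference of 3.05 (SE 0.12, adjusted p = 4.52e-23). *Ifngr1*, the ligand-binding chain of the IFN-γ receptor, was 0.84 higher in Th1 cells. Of the 8 IL-12, IL-18, and interferon receptor chains, 4 were higher, none was lower, and the median was 0.17. On the other side, *Il4ra*, the IL-4 receptor chain, lay between 7.47 and 8.32 in Th1 arrays and between 8.41 and 9.61 in Th2 arrays (late difference -1.42, SE 0.13, adjusted p = 3.44e-12). The list of IL-4, IL-33, and IL-25 receptor chains also holds *Il1r2*, which encodes a receptor for IL-1. Of the 5 genes tested in this list, 3 were called lower in Th1 cells, and 2 were negative in both experiments. The third called gene, *Il1r2*, differed by 0.08 in experiment 1 and by -0.89 in experiment 2. It lost its call with the matched pairs as a block (adjusted p = 0.219). The list medians were 0.06 and -0.40 in the 2 experiments. Of 10 common gamma-chain and other growth receptor genes, 2 were called, *Il10rb* at 0.87 and *Il15ra* at 0.78.

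**Figure D2:**
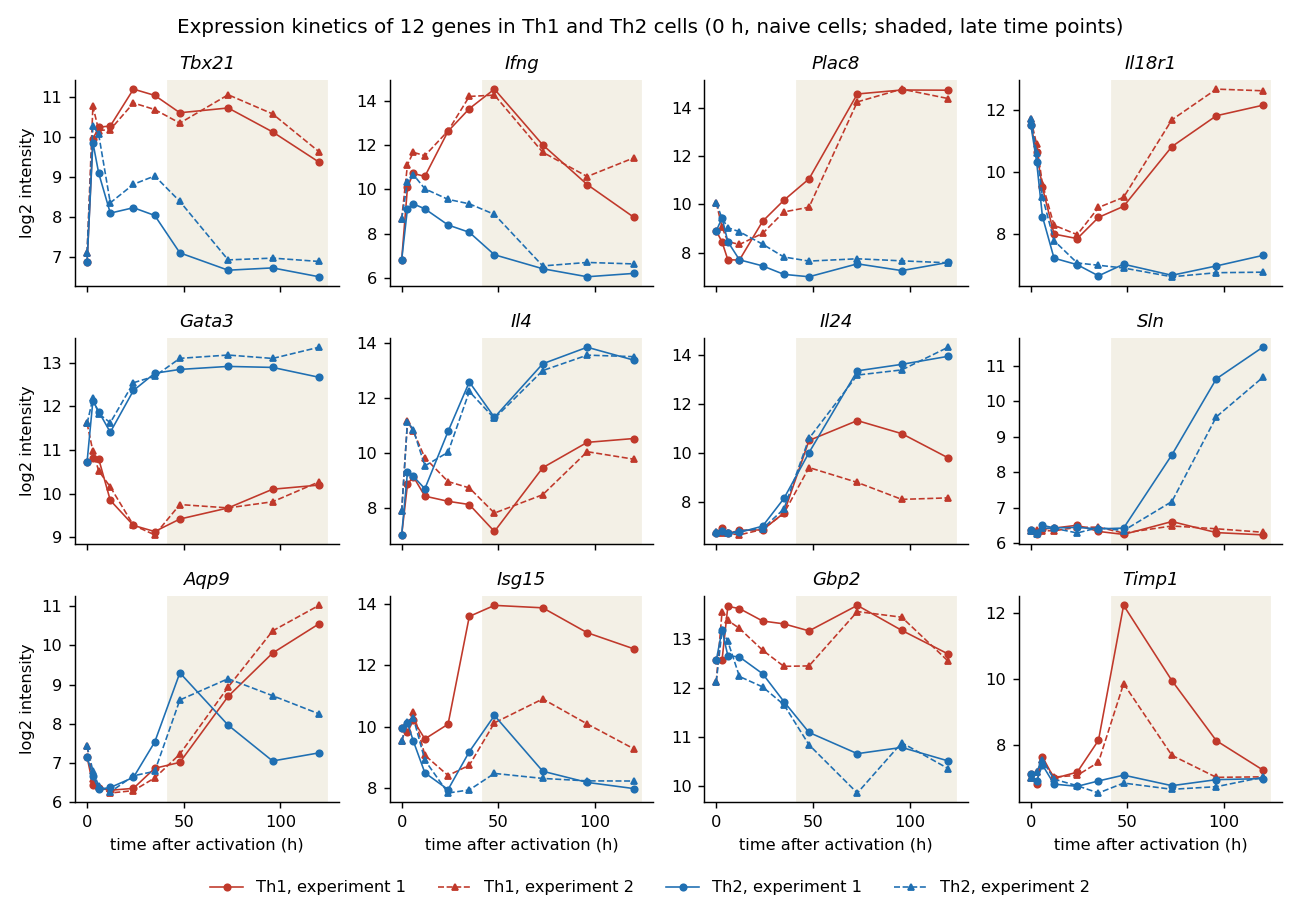
Log2 intensity (y axis) of 12 genes against time after activation in h (x axis) in Th1 (red) and Th2 cells (blue), with solid lines for experiment 1 and dashed lines for experiment 2; 0 h is the naive sample, and the late time points are shaded. *Tbx21* and *Gata3* had parted by 24 h, *Plac8*, *Il18r1*, *Il24*, and *Sln* parted further between 48 and 120 h, the lines of *Aqp9* cross, and the Th1 lines of *Isg15* differ between the experiments.

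The widest late difference was that of *Plac8*, a small cysteine-rich protein of immune cells. It lay between 9.89 and 14.76 in Th1 arrays (median 14.47) and between 7.01 and 7.75 in Th2 arrays (median 7.60), without overlap (late difference 6.03, SE 0.32, adjusted p = 5.92e-19). *Ly6c1*, a surface antigen of the Ly6 family with near-identical copies that a probe may not tell apart, ranged from 7.88 to 14.70 in Th1 arrays and from 6.75 to 9.94 in Th2 arrays. These ranges overlapped, and its difference of 4.38 was uneven, with 6.14 in experiment 1 and 2.62 in experiment 2. These 2 genes were the called members among 5 Ly6 and Plac8 surface genes tested. The further genes of the rule for the largest differences were *Samd9l* (3.49), *Jaml* (3.45), *Phf11a* (3.40), *Zbtb32* (3.32), *P2ry14* (3.13), and *Cxcr1* (3.01). *Jaml* encodes an adhesion molecule, *Zbtb32* a zinc finger repressor, *P2ry14* a receptor for nucleotide sugars, and *Cxcr1* a chemokine receptor. *Cxcr1* was separated, with Th1 arrays from 8.27 to 11.25 and Th2 arrays from 6.59 to 7.95 (SE 0.09, adjusted p = 1.38e-26).

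Cytotoxic and killer-receptor genes formed a further group. Of 13 tested, 6 were higher in Th1 cells, 1 was lower (*Srgn*, the granule proteoglycan serglycin, at -0.72, named after its value was seen), and 6 were not called. *Nkg7*, a granule membrane protein, lay between 9.45 and 11.42 in Th1 arrays (median 10.79) and between 6.72 and 7.62 in Th2 arrays (median 6.96). The groups were separated, and the late difference was 3.60 (SE 0.13, adjusted p = 2.04e-24). *Ctsw*, a cathepsin of cytotoxic cells, differed by 2.92, *Klrd1* (CD94) by 2.11, and *Klrk1* (NKG2D) by 1.67, each without overlap of the arrays. *Klrk1* has further expressed probes, which differed by 0.08 to 0.48. None of the 2 NK-cell markers above the filter was called, and the summed linear intensity of the 5 NK-cell markers was between 467 and 503 in Th1 arrays and between 472 and 515 in Th2 arrays. *Ncr1*, *Klra8*, and *Klre1* did not pass the filter.

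Genes of migration differed in both directions. *Cxcr3*, the chemokine receptor that guides Th1 cells to inflamed tissue, ranged from 7.19 to 9.86 in Th1 arrays (median 9.58) and from 6.44 to 7.17 in Th2 arrays (median 6.56), so the groups just failed to touch. The late difference was 2.34 (SE 0.12, adjusted p = 3.83e-20). *Ccr8*, a receptor of Th2 cells in skin, lay between 7.04 and 9.24 in Th1 arrays and between 10.08 and 11.65 in Th2 arrays (late difference -3.10, SE 0.17, adjusted p = 9.64e-19). *Ccr4* differed by -0.82 without overlap. Of the 4 receptor genes linked to Th1 cells, 2 were higher (*Ccrl2*, at 1.09, is the other), and of the 3 linked to Th2 cells, 2 were lower. *Cxcr4*, a homing receptor of naive T cells, was 1.18 lower in Th1 cells. *Gcnt1*, an enzyme that makes ligands of selectins, was separated and 1.74 higher in Th1 cells (SE 0.08, adjusted p = 5.00e-22). It was among 6 of 15 selectin-ligand enzymes and integrins that were higher, with *St3gal6* at 1.30, *Itgal* at 0.70, and *Itga6* at 0.50, against 1 lower, *Itgb3* at -0.28. Of 11 chemokine ligand genes, 4 were higher and none was lower: *Ccl5* (1.70), *Ccl4* (1.53), *Ccl3* (1.12), and *Cxcl10* (0.80). *Ccl3* and *Ccl4* differed most at 48 h, and *Ccl3* means at 73 and 96 h were at most 6.63 in both cell types. *Ccl5* lost its call without Th1 experiment 1 (0.59, adjusted p = 0.653) and without Th2 experiment 2 (0.93, adjusted p = 0.413), and *Cxcl10* lost it without Th1 experiment 1 and without either Th2 experiment.

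Interferon-induced GTPases, which attack the vacuoles of intracellular pathogens, were higher in Th1 than in Th2 cells as a group. Of 13 guanylate-binding and p47 GTPase genes, 10 were higher, 8 of them by at least 2-fold, none was lower, and 8 had separated arrays. The median late difference of the 13 genes was 1.22. *Gbp2* (chr3:142620663-142638008) lay between 12.45 and 13.69 in Th1 arrays (median 13.17) and between 9.85 and 11.09 in Th2 arrays (median 10.72), without overlap (late difference 2.48, SE 0.15, adjusted p = 1.52e-17). Its other expressed probes differed by 0.25 and 1.52. *Gbp7* differed by 2.71, *Gbp3* by 2.55, *Gbp5* by 2.36, *Irgm2* by 1.22, and *Igtp* by 1.11. The medians of the list were 1.43 in experiment 1 and 1.01 in experiment 2, and 11 of the 13 genes had the larger value in experiment 1. Th0 cells were near Th1 cells. The median level of the list was 12.08 and 11.69 in Th1 cells of experiments 1 and 2, and 11.65 and 11.68 in Th0 cells. In Th2 cells it was 9.32 and 9.57, and in naive cells it was 10.94. The Th0 mean was above the Th1 mean in 7 of the 13 genes. The count of called members was between 9 and 11 under every alternative of the analysis.

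The type I interferon antiviral genes, which block steps of viral replication, went in the same direction but differed between the experiments. Of 36 tested, 31 were higher in Th1 cells, 22 of them by at least 2-fold, and none was lower, and 3 had separated arrays. *Isg15*, a ubiquitin-like protein, ranged from 9.29 to 13.95 in Th1 arrays (median 11.72) and from 8.00 to 10.37 in Th2 arrays (median 8.28). The 4 Th1 arrays of experiment 1 lay between 12.54 and 13.95 and those of experiment 2 between 9.29 and 10.91, while all Th2 arrays except that of experiment 1 at 48 h were at or below 8.56. Its late difference was 3.18 (SE 0.68, adjusted p = 3.83e-04), with 4.58 in experiment 1 and 1.78 in experiment 2. *Mx2*, an antiviral GTPase, differed by 4.19 and 1.12 in the 2 experiments, *Usp18*, the protease that removes ISG15, by 4.21 and 0.71, *Ifit3* by 3.71 and 0.63, and *Bst2*, which tethers virions, by 2.62 and 0.61. Over the 36 genes, the median difference was 2.10 in experiment 1 and 0.42 in experiment 2, and 34 of 36 had the larger value in experiment 1. The median level of the list was 10.16 and 7.68 in Th1 cells of experiments 1 and 2, 10.65 and 8.49 in Th0 cells, and 7.16 and 7.07 in Th2 cells. The experiments thus differed in Th1 and Th0 cells more than in Th2 cells, and whether this has a technical origin was not tested. In naive cells the median level of the list was 8.35, above Th1 cells of experiment 2 and above Th2 cells of both experiments. Without the Th1 arrays of experiment 1, 7 of the 36 genes were called, and with the 2 experiment means as the replicates, 2 were. With the experiment number as a block in the fit of means, 12 were.

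Promoters of 2 genes of each group are shown because interferon-activated factors bind elements with a pair of GAAA. At 24 and 35 h, 8 of the 13 GTPase genes and 0 of the 36 antiviral genes were called 2-fold higher in Th1 cells. The median differences of the 2 lists were then 1.19 and 0.61, so the antiviral genes had also begun to part. At 35 h, *Isg15* was at 13.59 in Th1 and 9.19 in Th2 cells of experiment 1, and at 8.75 and 7.95 in experiment 2. The experiments thus already differed for *Isg15* in this window. A 2-fold call also needs an adjusted p under 0.05 and so depends on the spread between experiments. The window runs from 250 bases before to 50 bases after each start in RefSeq (GRCm38.p6), is printed 5′ to 3′ on the strand of the gene, and has in capitals each match, on either strand, to a pair of GAAA with 2 bases between them. The windows are chr3:142496684-142496983 on the plus strand for *Gbp5*, chr11:58214727-58215026 on the plus strand for *Irgm2*, chr4:156200769-156201068 on the minus strand for *Isg15*, with 3 overlapping matches, and chr19:34583279-34583578 on the plus strand for *Ifit3*, with 2 matches.
*Gbp5*: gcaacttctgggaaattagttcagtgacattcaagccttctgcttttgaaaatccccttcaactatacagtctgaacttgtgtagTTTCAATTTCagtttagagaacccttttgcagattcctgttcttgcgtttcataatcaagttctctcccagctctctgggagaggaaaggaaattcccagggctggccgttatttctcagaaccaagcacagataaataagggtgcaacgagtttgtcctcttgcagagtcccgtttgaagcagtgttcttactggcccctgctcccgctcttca
*Irgm2*: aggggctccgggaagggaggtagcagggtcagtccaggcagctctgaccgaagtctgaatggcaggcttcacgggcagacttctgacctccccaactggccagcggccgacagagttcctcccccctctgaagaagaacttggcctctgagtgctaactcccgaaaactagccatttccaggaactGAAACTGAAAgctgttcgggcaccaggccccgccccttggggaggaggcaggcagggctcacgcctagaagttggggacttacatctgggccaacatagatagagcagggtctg
*Isg15*: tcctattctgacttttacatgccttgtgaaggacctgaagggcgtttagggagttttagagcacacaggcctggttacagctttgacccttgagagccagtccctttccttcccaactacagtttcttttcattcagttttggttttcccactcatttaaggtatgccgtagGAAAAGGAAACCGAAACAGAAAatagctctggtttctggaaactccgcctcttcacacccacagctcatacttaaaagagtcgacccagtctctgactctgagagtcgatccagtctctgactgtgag
*Ifit3*: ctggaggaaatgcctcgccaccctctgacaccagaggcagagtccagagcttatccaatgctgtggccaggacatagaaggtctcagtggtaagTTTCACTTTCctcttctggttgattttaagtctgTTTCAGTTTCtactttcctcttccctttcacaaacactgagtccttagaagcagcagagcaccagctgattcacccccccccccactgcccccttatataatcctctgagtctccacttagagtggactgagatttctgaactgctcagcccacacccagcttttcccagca
The match in *Gbp5* begins 165 bases before the start and that in *Irgm2* 64 bases before it. Among the 9 GTPase genes with a RefSeq promoter, 8 had such a match, and among the 24 antiviral genes, 11 did. Over the 160 promoters of 117 genes at least 2-fold higher in Th1 cells, 17.5% held it, against 1.62% of the 185 promoters of 120 genes at least 2-fold higher in Th2 cells and 3.16% of the 14002 promoters of all genes tested. The interferon-gamma type element TTCNNNGAA was found in 14.4%, 6.49%, and 7.28% of these promoters, and the T-box element TCACACC in 6.88%, 5.41%, and 3.54%. The windows shown also hold matches that are not marked, to TTCNNNGAA in *Gbp5* (2) and *Irgm2* (1) and to TCACACC in *Isg15* (1). A match to TTCNNNGAA was found in 5 of the 9 GTPase genes and in 6 of the 24 antiviral genes. These shares and matches are descriptions of letters in a window, and binding was not measured.

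MHC class I presentation, which displays peptides to CD8 T cells, was higher in Th1 cells for 15 of 19 genes, with none lower and a median of 0.56. *Nlrc5*, the transactivator of class I genes, lay between 10.59 and 11.62 in Th1 arrays and between 8.84 and 10.09 in Th2 arrays (late difference 1.55, SE 0.16, adjusted p = 1.31e-10). *Tapbpl*, a peptide editor, differed by 1.03, *H2-T23* by 0.92, and the immunoproteasome subunit *Psmb10* by 0.88. The list medians were 0.82 in experiment 1 and 0.41 in experiment 2, and all 19 genes had the larger value in experiment 1. Without the Th1 arrays of experiment 1, 9 of the 19 genes were called. Median levels in experiments 1 and 2 were 12.16 and 11.98 in Th1 cells, 12.23 and 11.86 in Th0 cells, and 11.07 and 11.30 in Th2 cells. In naive cells the median level was 12.53, above all of these. Of 4 Schlafen genes, 2 were higher, *Slfn1* (1.60) and *Slfn2* (0.77), again with larger values in experiment 1 (2.37 and 1.21) than in experiment 2 (0.83 and 0.32).

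**Figure D3:**
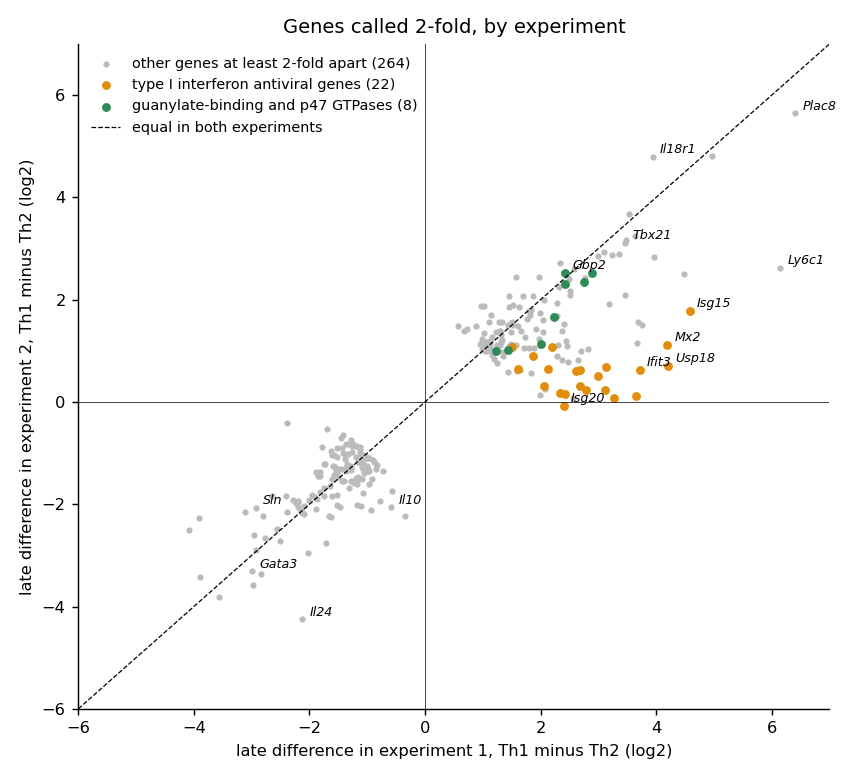
Late difference in experiment 1 (x axis) against that in experiment 2 (y axis), both Th1 minus Th2 on the log2 scale, for the 294 genes called 2-fold; each is a mean over 4 time points. Orange points are the 22 type I interferon antiviral genes called 2-fold, and green points are guanylate-binding and p47 GTPase genes. The dashed line marks equal values. Of all 36 antiviral genes tested, 34 had the larger value in experiment 1, with *Usp18* at 4.21 and 0.71. Of the 13 GTPase genes tested, 11 had the larger value in experiment 1, and *Gbp2*, at 2.43 and 2.53, is 1 of the 2 others.

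Th2 transcription factors differed in the other direction. Of 10 tested, 6 were lower in Th1 cells, 5 of them by at least 2-fold, none was higher, and the median was -0.94. *Pparg*, a nuclear receptor of lipid metabolism and of Th2 cells, ranged from 6.40 to 7.59 in Th1 arrays (median 7.03) and from 7.23 to 10.69 in Th2 arrays (median 9.55). The ranges overlapped, and the Th2 mean at 48 h was 7.47, and the late difference was -2.25 (SE 0.17, adjusted p = 4.49e-14). The other expressed *Pparg* probe differed by -0.76. *Batf*, an AP-1 family factor, differed by -1.94, and *Rbpj*, the DNA-binding partner of Notch, by -1.40. *Rbpj* arrays were separated, but a second probe differed by -0.61. Of 6 Th2 cytokine genes tested, 5 were lower in Th1 cells and none was higher. *Il24*, a member of the IL-10 family, lay between 8.10 and 11.31 in Th1 arrays (median 9.59) and between 10.01 and 14.31 in Th2 arrays (median 13.36). The ranges overlapped, the mean difference at 48 h was -0.35, and 7 of 8 pairs were negative (late difference -3.19, SE 0.26, adjusted p = 5.08e-13). *Il10*, an anti-inflammatory cytokine, differed by -1.32, with -0.59 in experiment 1 and -2.06 in experiment 2, and lost its call without Th2 experiment 2 (-0.64, adjusted p = 0.094). *Il13*, an effector cytokine of mucosal type 2 immunity, differed by -0.51, with -1.46 at 48 h and -0.27 at 120 h, and *Il5*, the eosinophil growth factor, differed by -0.45.

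For *Il4*, a RefSeq start (chr11:53618616-53618915, minus strand) has a STAT6-type match, TTC and GAA with 4 bases between them, in capitals below. The window also holds a match to the GAAA pair, not marked here, and another *Il4* start has a match to TTCNNNGAA. The marked match begins 167 bases before the start.
*Il4*: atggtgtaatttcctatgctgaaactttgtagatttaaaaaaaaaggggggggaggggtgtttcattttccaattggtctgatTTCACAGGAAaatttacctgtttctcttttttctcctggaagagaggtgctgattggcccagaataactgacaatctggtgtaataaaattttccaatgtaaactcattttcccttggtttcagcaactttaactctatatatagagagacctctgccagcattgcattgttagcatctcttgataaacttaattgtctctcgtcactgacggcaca
Such a match was found in 5.41% of the promoters of genes at least 2-fold higher in Th2 cells, in 8.75% of those higher in Th1 cells, and in 5.62% of all promoters, so the share in Th2 genes was near that of all genes.

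Outside these lists, the largest differences towards Th2 cells were those of genes with many other roles. *Myo6*, an unconventional myosin, lay between 8.01 and 12.60 in Th1 arrays (median 11.37) and between 12.32 and 15.40 in Th2 arrays (median 15.04). Its ranges overlapped slightly, since the Th1 mean went from 8.13 at 48 h to 12.28 at 120 h, but all 8 pairs were negative (late difference -3.66, SE 0.21, adjusted p = 9.11e-18). *Akr1c18*, a progesterone-metabolizing enzyme, differed by -3.30, *Asb2*, a substrate receptor of a ubiquitin ligase, by -3.28, and *Cpne6*, a calcium-binding copine, by -3.10. *Plcd1*, a phospholipase C, was separated, with Th1 arrays from 6.99 to 7.64 and Th2 arrays from 8.27 to 10.90 (late difference -2.91, SE 0.12, adjusted p = 6.31e-23). *Pros1*, the vitamin K-dependent protein S, differed by -2.78, *Efna5*, an ephrin ligand, by -2.72, *Adamtsl4* by -2.63, *Ddc*, the aromatic amino acid decarboxylase, by -2.62, *Ntrk3*, a neurotrophin receptor, by -2.52, *Sln*, the calcium pump inhibitor sarcolipin, by -2.50, and *F2rl2*, a thrombin receptor, by -2.49. *Asb2*, *Plcd1*, *Pros1*, *Efna5*, *Ddc*, and *Ntrk3* arrays did not overlap between the cell types, those of *Akr1c18*, *Cpne6*, *Adamtsl4*, *Sln*, and *F2rl2* did.

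*Adgre1*, a macrophage marker, lay between 6.20 and 6.59 in Th1 arrays and between 6.46 and 10.91 in Th2 arrays (median 9.20), with a late difference of -2.52 (SE 0.09, adjusted p = 2.43e-24). It is 1 of 11 myeloid and dendritic-cell markers of a list. The summed linear intensity of this list was between 1029.9 and 1129 in Th1 arrays and between 1019.9 and 2961 in Th2 arrays. Of the 9 members above the filter, *Adgre1* was the only one called. *Lyz2*, *Csf1r*, *Cd14*, *S100a8*, and *S100a9* had Th2 means from 6.28 to 6.80 and late differences from -0.01 to 0.03. The other *Adgre1* probes differed by -0.69 and -1.96. Among B-cell markers, *Cd79b*, a chain of the B-cell receptor complex, was 0.84 lower in Th1 cells (adjusted p = 5.30e-04), and the 3 other members above the filter were not called. The B-cell list summed to between 529 and 623 in Th1 arrays and between 577 and 1067 in Th2 arrays. MHC class II presentation, in which B cells and myeloid cells excel, was called lower in Th1 cells for 3 of 7 genes and higher for none. The list medians were -0.70 in experiment 1 and -0.00011 in experiment 2. *H2-DMb1* and *H2-DMa*, which load peptides onto class II molecules, differed by -1.01 and -0.69, and *Ciita*, the class II transactivator, by -0.22, which lost its call without either experiment 1 group and with the matched pairs as a block. The part of such cells in these differences was not tested. No mast-cell, basophil, or erythroid marker was called.

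Costimulatory and checkpoint receptors were split. Of 20 tested, 6 were higher and 6 lower in Th1 cells, 3 of each by at least 2-fold, with a median of 0.00. *Btla* (1.97) and *Cd200* (1.42), inhibitory proteins of lymphocytes, were higher, and *Ctla4*, the inhibitory receptor for CD80 and CD86, was lower (-1.50, SE 0.22, adjusted p = 9.93e-07). *Ctla4* levels ran from 11.59 to 12.85 in Th1 arrays and from 12.85 to 13.81 in Th2 arrays, so the ranges met at their ends. *Tnfrsf9* (4-1BB) differed by -1.35, and its other expressed probes by -1.37 and 0.04. Of 8 TNF family ligands, 3 were higher and 3 lower. *Tnfsf14* (LIGHT) and *Tnfsf13b* (BAFF) differed by -1.94 and -1.79, *Tnfsf8* by -0.39, *Cd70* by 0.95, *Tnfsf4* by 0.49, and *Tnfsf10* by 0.45. Of 8 Treg genes, 5 were lower and 1 was higher, among them *Gpr83* (-1.03), *Izumo1r* (-0.80, with 0.05 for 1 of its other probes), *Ebi3* (-0.88), and *Nt5e* (0.69), with *Tgfb1* (-0.36) and *Foxp3* (-0.24) as the other 2 lower ones. *Ebi3* lost its call without Th1 experiment 2 or Th2 experiment 1. Among 9 prostanoid and steroid genes, 4 were lower, led by *Cyp11a1*, the first enzyme of steroid synthesis (-1.63), with the prostaglandin receptors *Ptger2* (-0.89) and *Ptgir* (-0.72) and with *Alox5ap* (-0.39), and *Ltb4r1* was higher (0.31). Of 12 cytokine signal inhibitors, *Socs3* (0.68) and *Socs4* (0.32) were higher, and *Socs2* (-0.71), *Cish* (-0.50), and *Socs1* (-0.41) were lower.

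Lists of T-cell identity and of general cell state are read against the 10.5% of all genes called higher and the 9.97% called lower. Of 15 genes of the TCR complex and proximal signalling, 7 were higher, with *Fyn*, a kinase of the TCR, at 0.99 (0.17 for its other probe) and *Cd6* at 0.58, none was lower, and the median was 0.18. Of 24 mitosis and DNA replication genes, 1 was called, *Pole* (0.30), which lost its call without any of the 4 sets of arrays of an experiment. In glycolysis 2 of 15 were lower (*Aldoc* -0.71, *Aldoa* -0.28), in cholesterol synthesis 1 of 13 was higher (*Ebp* 0.26) and 2 were lower (*Lss* -0.52, *Mvk* -0.25), near the shares of all genes, in the ATF4 and serine genes 1 of 17 was lower (*Ddit3*), and in the endoplasmic reticulum stress genes 2 of 14 were lower (*Xbp1*, *Creld2*). *Creld2* differed by -0.10 and -0.40 in the 2 experiments and lost its call with the matched pairs as a block (adjusted p = 0.054). Medians of these 5 lists were between -0.13 and 0.07. Of 15 BCL2 family genes, 4 were higher and 2 lower, among them *Bcl2l11* (BIM) at 0.73 and *Mcl1* at -0.43. *Bcl2a1b* and *Bcl2a1d* are near-identical copies. Of 6 Tfh genes 3 were higher (*Il21* 0.67, *Cxcr5* 0.46, *Bcl6* 0.42), of 6 Th17 genes 2 were higher (*Rora* 0.57, *Ccr6* 0.54, with other probes at -0.01 and 0.14), and of 11 naive and memory T-cell factors 2 were higher (*Id3* 1.03, *Klf6* 0.91) and 1 was lower (*Klf3* -0.63). *Bcl6* differed by -0.03 in experiment 1 and by 0.86 in experiment 2, with 4 of 8 pairs negative, and lost its call with the matched pairs as a block (adjusted p = 0.160). Of the 132 named genes, 61 had several expressed probes, of which 34 had a probe with less than 50% of the difference and 3 (*Izumo1r*, *Rora*, *Tnfrsf9*) a probe of opposite sign. The list members *Socs4*, *Ebp*, *Lss*, *Mvk*, *Alox5ap*, *Ltb4r1*, *Tnfsf8*, *Tnfsf10*, *Itgb3*, *Il5*, *Foxp3*, and *Tgfb1* were named after their values were seen.

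**Figure D4:**
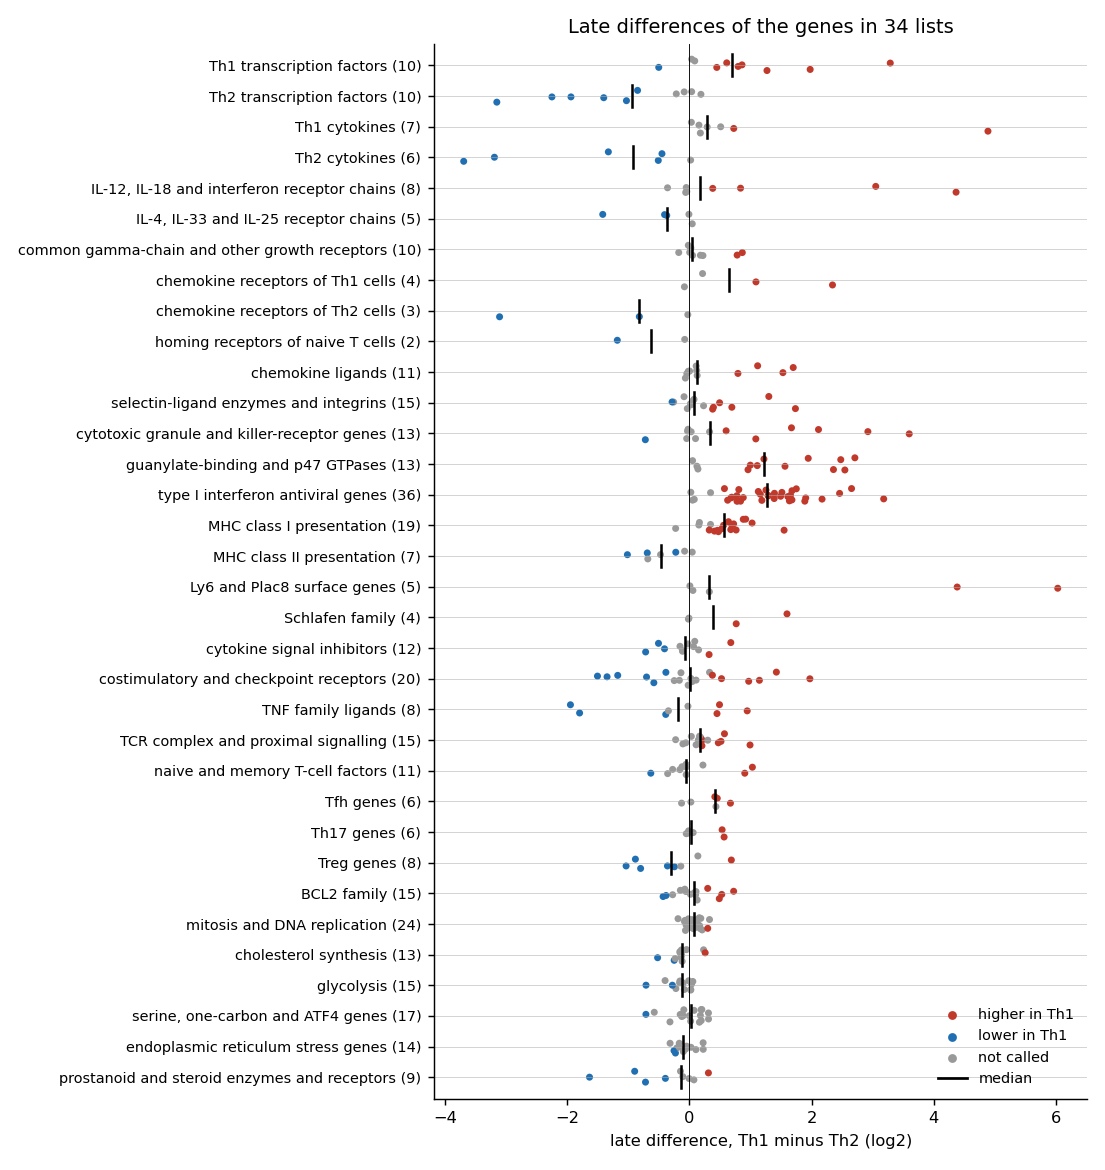
Late differences (x axis, Th1 minus Th2, log2) of the tested genes of 34 lists (y axis, number of genes in parentheses). Each point is a gene, red where called higher, blue where called lower in Th1 cells, grey where not called, and the bar is the median of the list; the medians run from -0.94 for Th2 transcription factors to 1.27 for type I interferon antiviral genes.

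The difference between the cell types was not constant within the late window. An F-test over the 4 time points called a change in 293 genes. In 68 (0.492% of all genes tested) the difference moved towards Th1 by at least 1 on the log2 scale from 48 to 120 h, and in 106 (0.767%) it moved towards Th2. These counts were 26 and 33 with the 16 late arrays alone, 45 and 46 without Th1 experiment 1, and 43 towards Th1 with the matched pairs as a block. *Aqp9*, a channel for glycerol and water, changed its sign. Its mean went from 7.12 to 10.79 in Th1 cells and from 8.95 to 7.75 in Th2 cells, so the difference was -1.84 at 48 h and 3.04 at 120 h (change 4.87, adjusted p = 1.31e-08). A dimmer *Aqp9* probe differed by 0.04 over the window. *P2ry14* differed by 0.41 at 48 h and by 3.86 at 120 h (change 3.46, adjusted p = 3.11e-10), *Nod1*, a sensor of bacterial peptidoglycan, by 0.47 and 3.55, *Il18r1* by 2.08 and 5.36, and *Plac8* by 3.13 and 6.95. In these 4 genes the mean Th1 level was higher at 120 h than at 48 h, and the mean Th2 level was at most 7.65 at all 4 times. *Il18r1* was at 11.62 in naive cells, against 12.40 in Th1 and 7.04 in Th2 cells at 120 h. *Ctsw*, not among these 4, was at 11.07 in naive cells, against 11.455 and 7.28 at 120 h. *Plac8* was at 8.91 and 10.07 in the naive arrays of experiments 1 and 2, below all Th1 arrays from 73 h on.

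Towards Th2 cells, *Sln* went from 6.38 at 48 h to 11.10 at 120 h in Th2 cells, while Th1 cells stayed between 6.26 and 6.54 (change -4.72, adjusted p = 1.95e-12). *Il24* reached 14.12 in Th2 cells at 120 h from 10.30 at 48 h, against 8.98 from 9.95 in Th1 cells (change -4.80, adjusted p = 1.99e-04). *Nts*, the precursor of neurotensin, and *Adgre1* followed the pattern of *Sln*, with changes of -3.21 and -4.31. The other expressed *Nts* probe differed by -0.05 over the window, against -1.67 for the probe used. *Timp1*, an inhibitor of metalloproteinases, had its difference at the start instead. Its mean Th1 level dropped from 11.05 at 48 h to 7.12 at 120 h, while Th2 cells stayed between 6.69 and 6.98, so a difference of 4.10 ended at 0.14 (change -3.96, adjusted p = 9.01e-05). *Ccl3* and *Ccl4* were likewise high in Th1 cells at 48 h, with differences of 3.64 and 3.61, and differed by 0.54 and 1.05 at 120 h. At 120 h, *Ccl3* was at 6.40 and 7.65 in Th1 arrays of experiments 1 and 2, against 6.52 and 6.46 in Th2 arrays. At 96 h, the mean *Ccl4* level was 7.39 in Th1 and 7.57 in Th2 cells. For *Ifng*, the difference was 6.45 at 48 h and 3.68 at 120 h, a change that the F-test did not call (adjusted p = 0.512).

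**Figure D5:**
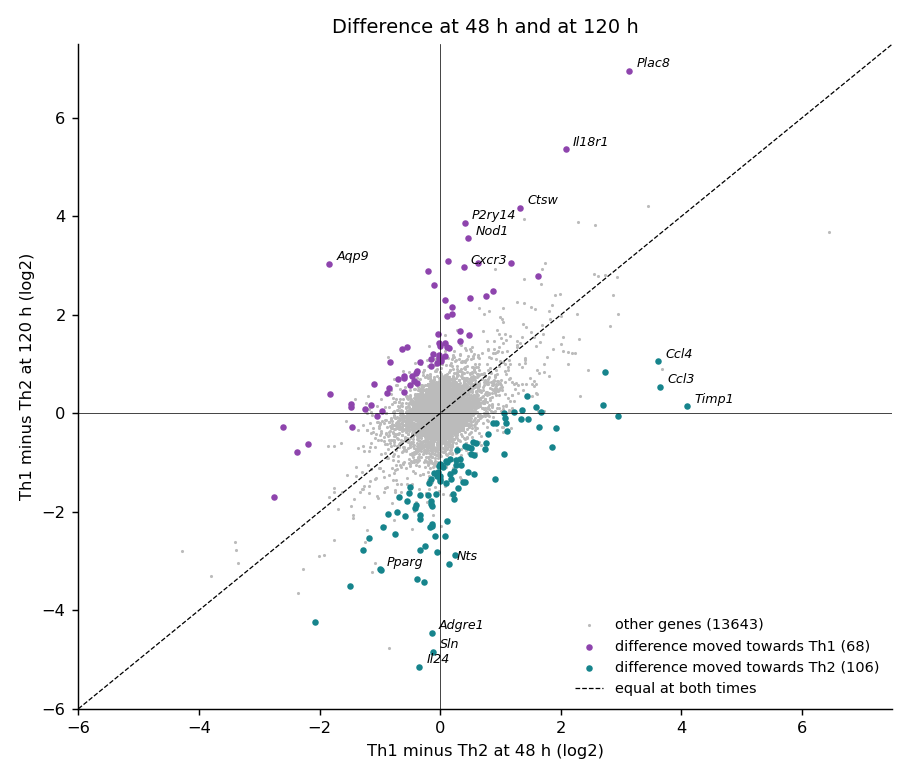
Difference between Th1 and Th2 cells (log2) at 48 h (x axis) and at 120 h (y axis) for all genes, each a mean of 2 arrays per cell type. Purple points are the 68 genes whose difference moved towards Th1 cells, teal points the 106 whose difference moved towards Th2 cells, and the dashed line marks equal differences; *Aqp9* lies at -1.84 and 3.04, *Timp1* at 4.10 and 0.14.

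Few of the late genes were called 2-fold early. At 3 to 12 h, 7 genes (0.0507% of all tested) were at least 2-fold higher and 27 (0.195%) at least 2-fold lower in Th1 cells, and at 24 and 35 h the numbers were 63 (0.456%) and 62 (0.449%). Of the 153 late genes higher in Th1 cells, 4 were called 2-fold at 3 to 12 h and 36 at 24 and 35 h, and of the 141 lower ones, 12 and 35. Within the late window, 36 and 39 genes were called 2-fold at all 4 time points. Genes called in all windows were *Kit*, *Irf8*, *Irgm2*, and *Igtp* for Th1 cells and 11 genes for Th2 cells, led by *Myo6*, *Gata3*, *Pros1*, *Efna5*, and *Trat1*. *Kit*, the stem cell factor receptor, differed by 1.11 at 3 to 12 h, 1.05 at 24 and 35 h, and 1.42 late. *Pros1* differed by -2.52, -3.89, and -2.78, and *Gata3* by -1.33, -3.41, and -3.15. *Tbx21* and *Ifng* differed by 0.97 and 1.19 at 3 to 12 h and by 2.42 and 4.45 at 24 and 35 h, whereas *Il18r1*, *Cxcr3*, and *Ctsw* differed by 1.38, 0.44, and 0.09 at 24 and 35 h. These windows and the late window come from the same 2 experiments. The earlier windows hold fewer arrays per cell type than the late one, and the 153 and 141 genes were chosen by their late values. A gene not called in an earlier window may thus have differed there.

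Levels in the other cultures place the 294 genes. Of the 153 genes higher in Th1 cells, the Th1 mean was at least 2-fold above naive cells in 71 and the Th2 mean at least 2-fold below naive cells in 69. Of the 141 genes lower in Th1 cells, the Th2 mean was at least 2-fold above naive cells in 110 and the Th1 mean at least 2-fold below in 19. The Th0 mean was nearer to Th1 than to Th2 in 119 of the 153 and in 131 of the 141 genes, and in 63 and 60 of these genes it lay beyond the Th1 mean, on the side away from Th2. The Th1/2 mean was nearer to Th2 in 109 of the 153 and in 115 of the 141 genes. *Tbx21* was nearer to Th1 cells, with 9.97 in Th1/2 cells against 10.32 in Th1 and 7.03 in Th2 cells, as was *Plac8* with 12.19 against 13.54 and 7.51. *Ifng* was at 7.95 in Th1/2 cells against 11.69 and 6.80, and *Il18r1* at 7.49 against 11.24 and 6.88. *Il4* was at 13.28 in Th1/2 and 12.89 in Th2 cells, and *Gata3* at 12.72 and 13.01. These are descriptions of means, without a test.

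The sign of the late difference differed between the experiments in 1 of the 153 and in 0 of the 141 genes called 2-fold. The 2-fold call rests on the mean of both experiments, so few opposite signs could occur among these genes. The gene with opposite signs was *Isg20*, an antiviral exonuclease named after its value was seen, with 2.40 in experiment 1 and -0.08 in experiment 2. In 105 of the 153 genes higher in Th1 cells, both experiments differed by at least 2-fold, in 40 only experiment 1 and in 8 only experiment 2. In the genes lower in Th1 cells, the numbers were 105, 20, and 16. Across all genes, which are not independent replicates, Pearson's r of the late differences of both experiments was 0.823. With the 2 experiment means as the only replicates (n = 2 per cell type), limma still called 91 of the 153 and 116 of the 141 genes. With the experiment number as a block in that fit, it called 134 and 138, though little is then left to estimate the spread. These means come from the arrays on which the genes were selected, so this is no independent test.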

How the data were processed

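RNA was hybridized to Illumina Mouse Sentrix-6 arrays, and the authors background-corrected and quantile-normalized the signals. The deposited values are normalized intensities on a linear scale, and the software was not given in the sources used here. They were taken as log2 without further normalization. Of 45135 probes, 34773 had 1 gene symbol, 18 several, and 10344 none. Probes whose mean was above 6.77, the median of all log2 values, in at least 1 condition were kept, and each of 13817 genes was represented by its brightest probe. limma 3.58.1 (R 4.3.3) was fitted over all 74 arrays with 1 mean per condition (37 conditions), without a block, and p-values were adjusted by Benjamini-Hochberg over all genes. The SE of a gene thus rests on its spread in all conditions, also those where it was dim. With the 16 late arrays alone, 11 of the 132 named genes lost their call. Called type I interferon antiviral genes then numbered 18 instead of 31. The change within the late window was an F-test over the 4 time points. Experiments 1 and 2 are replicates 1 and 2 of the labels. Deviations of same-numbered Th1 and Th2 arrays correlated by 0.29 to 0.52, so the numbers were taken to pair the samples. The scripts were tested on simulated data.

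Genes were named by rule: the 15 largest late differences in each direction that were 2-fold and had the same sign in all pairs, up to 4 called members per list (else the 2 brightest), 9 genes of the Th1 and Th2 programs, the 5 largest changes in each direction, and up to 5 genes per direction called in all windows. Members, lists, and rules were chosen with earlier results of these data known. Alternatives covered normalization, probe choice, filter, arrays fitted, variance trend, blocks, experiment means, left-out replicates or times, and the fold threshold. The number of arrays limits the precision.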

Additional observations from a re-analysis of the deposited data

Results flagged for a closer look

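For 31 of 132 named genes, the difference between Th1 and Th2 cells itself differed between the late time points (F-test over 48, 73, 96, and 120 h, adjusted p under 0.05). The 5 largest changes in each direction were named because this F-test called them, so the count is partly fixed by the naming. Over all 13817 genes tested, the F-test called 293. Values are the difference at 120 h minus that at 48 h on the log2 scale, each time point with 2 arrays per cell type. The difference moved towards Th1 cells for 13 genes, *Aqp9* (4.87), *Plac8* (3.82), *P2ry14* (3.46), *Il18r1* (3.28), *Nod1* (3.08), *Ctsw* (2.85), *Cxcr3* (2.57), *Klrd1* (1.63), *Il13* (1.19), *Cxcr1* (1.16), *Btla* (0.97), *Gcnt1* (0.40), and *Klrk1* (0.0841). It moved towards Th2 cells for 18 genes, *Il24* (-4.80), *Sln* (-4.72), *Adgre1* (-4.31), *Timp1* (-3.96), *Nts* (-3.21), *Ccl3* (-3.10), *F2rl2* (-2.98), *Ccl4* (-2.56), *Cyp11a1* (-2.45), *Ntrk3* (-2.21), *Asb2* (-2.17), *Pparg* (-2.16), *Adamtsl4* (-2.01), *Tnfsf13b* (-1.75), *Il15ra* (-1.47), *Tnfsf14* (-1.17), *Plcd1* (-0.94), and *Zbtb32* (-0.45). For *Btla*, *Gcnt1*, *Klrk1*, *Plcd1*, and *Zbtb32*, this value is under 1 in size, and the F-test also takes in 73 and 96 h.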

How the results depend on the processing

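Adjusted-p calls were 1445 higher and 1378 lower in Th1 cells, and 263 and 297 with the 2 experiment means as replicates, where 91 of the 153 2-fold higher genes remained. With the experiment number as a block in the fit of means, the calls were 1130 and 1072. Leaving out each experiment of a cell type gave 949 to 1242 higher and 924 to 1193 lower calls, 135 to 204 and 138 to 156 2-fold calls, 48 to 101 higher and 51 to 69 lower 2-fold calls at 24 and 35 h, and 35 to 68 changes towards Th1 and 46 to 89 towards Th2 against 68 and 106. The lowest counts of higher calls came without Th2 experiment 1 (949) and Th1 experiment 1 (962). Changes numbered 26 and 33 with the 16 late arrays alone. With the matched pairs as a replicate block, 43 changes towards Th1 were called, 152 of the 153 and 141 of the 141 2-fold late genes stayed called, and 4 of the 132 named genes (*Bcl6*, *Ciita*, *Creld2*, *Il1r2*) lost their call. At a 1.5-fold threshold there were 400 and 367 late, 35 and 64 early, and 143 and 143 calls at 24 and 35 h. The causes of these shifts were not tested. No named gene reversed its sign under any of 18 settings, although 1 of the 153 genes did without Th1 experiment 1. Many named genes were chosen for large differences or for the same sign in all pairs, so a reversal was unlikely from the start. Of the 132 named genes, 68 stayed called in all settings, 36 lost their call without some replicate, and 57 with experiment means. With the experiment number as a block in the fit of means, 16 lost it. The mean of all probes of a gene kept 117 of 153 and 110 of 141 2-fold calls, and normexp background correction 152 and 141. The count of called type I interferon antiviral genes (31 of 36) ran from 2 to 33 over these settings.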
